A study of Mus musculus with 2 samples.

Results

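Cadherins and protocadherins are the calcium-dependent adhesion molecules of the cell surface. They were represented by 94 array probes under 66 gene names, of 39429 probes and 29924 names on the array. Members were all non-control probes whose gene name was *Cdh* or *Pcdh* with a number, or *Pcdha*, *Pcdhb*, *Pcdhga*, *Pcdhgb* or *Pcdhgc* with a number. *Cdh5*, the cadherin of endothelial junctions, was set aside. All 66 names stood in the RefSeq gene table, and 59 of the 66 were bright enough to be tested. The rule goes by gene name.

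To find the genes that respond to a short loss of WNT ligand secretion, the study explanted ureters of wildtype NMRI mouse embryos at E11.5 and kept them for 18 h in medium without serum. The medium contained either 10 µM IWP-2, an inhibitor of the acyltransferase PORCN that WNT proteins need for their release, or the solvent DMSO alone (2:1000, control). RNA of a pool of treated ureters and RNA of a pool of control ureters were hybridised together on each of 2 two-colour Agilent arrays. On replicate 1 the treated pool carried the red dye AlexaFluor647 and the control pool the green dye AlexaFluor555. The dyes were exchanged between the pools on replicate 2. Strain, genotype, stage and culture time were thus common to both groups, and the sex of the embryos was not determined. The ureter at this stage holds an epithelial tube in a mesenchymal sheath, and whole ureters were measured, so that fewer cells of a type and less RNA per cell cannot be told apart.

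Classical cadherins join neighbouring cells by binding their own kind across the cell border and hold the actin cytoskeleton through catenins, among them beta-catenin, which also carries the canonical WNT signal. Type I cadherins such as E-cadherin mark epithelia, muscle or neural tissue, and type II cadherins are found mostly in mesenchyme and the nervous system. Protocadherins lack the catenin-binding tail. The delta-protocadherins are encoded by separate genes, whereas the alpha, beta and gamma genes lie side by side in clusters. Alpha and gamma transcripts each join an own first exon to exons common to their cluster, and beta genes have no such common exons.

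The array measured each gene through oligonucleotides of 60 bases, each printed 4 times. The first 30 bases of the probe are given for 6 of the 7 members with an unadjusted p-value below 0.01, as these carry the largest changes of the family. The other one, *Pcdh12*, is described by its values alone. All bases are in lower case since no part is singled out. Positions are those of the whole probe in the files (mm9). The probe of *Pcdh8* lay at chr14:80166728-80166787 on the minus strand, that of *Cdh22* at chr2:164937057-164937116 on the minus strand, that of *Cdh9* at chr15:16785915-16785974 on the plus strand, that of *Cdh24* at chr14:55251342-55251401 on the minus strand, that of *Cdh10* at chr15:18943342-18943401 on the plus strand and that of *Pcdh18* at chr3:49547305-49547364 on the minus strand.
Pcdh8: aatgtgttggaattgctcattgggatttta
Cdh22: aacagcacctacctcgaagatttgagagga
Cdh9: attatgattaccttagcgactggggacctc
Cdh24: tgatggtactggaggaggaggacgtccgcg
Cdh10: ggagaccaaaactacgattacctccgagaa
Pcdh18: gaatgccttggtaagtgagatctttactat

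Changes are log2 ratios, treated divided by control, and a mean over both arrays is followed by the standard deviation (SD) of the 2 values. The test was limma with Benjamini-Hochberg adjustment over the 20119 genes tested, and the threshold was a false discovery rate (FDR) of 0.05. The brightness of a spot is given as its processed intensity, on the scale of the scanner software. An offset of 50 was added to the corrected signals before the ratios were formed, which makes the ratios of dim probes smaller than those of their processed intensities. Intensities of different probes are not comparable as transcript levels. How many of all genes had treated and control intensities that did not overlap was not counted, so that lack of overlap has no background share here.

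Across the family, 1 gene fell and 1 gene rose. The gene that fell was *Cdh22* and the gene that rose was *Pcdh8*. Of all genes tested, 1.15% passed the threshold as lower and 0.611% as higher, so that 1 member of 59 in either direction was close to the background. At an unadjusted p-value below 0.05, 14 members were lower, beside 4.74% of all genes, and 8 were higher, beside 8.67% of all genes. Of the 14 lower members 10 were *Pcdhb* genes. The ratio lay below 0 on both arrays in 29 members and above 0 on both in 12, and in 18 members the arrays had opposite signs. Of the 29 members lower on both, 19 were *Pcdhb* genes. Among all genes 27.5% were lower and 28.5% higher on both arrays. The median change was -0.12 over the 59 members and 0.00 over all genes tested. By group it was -0.26 in the *Pcdhb*, -0.11 in the *Pcdhg* and -0.05 in the *Pcdha* genes. In the *Cdh* genes it was 0.08 and in the nonclustered protocadherins 0.20. In the ratios formed with the offset, the largest change of a member on a single array was 0.87 on the log2 scale, a 1.83-fold difference. Processed intensities of some dimmer members differed by a larger fold. That of *Pcdh20* rose from 11.4 to 23.1 on replicate 2, where its ratio with the offset was 0.54. That of *Cdh22* fell from 49.2 to 25.9 on replicate 1. The plot by subfamily shows each member on both arrays.

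**Figure D1:**
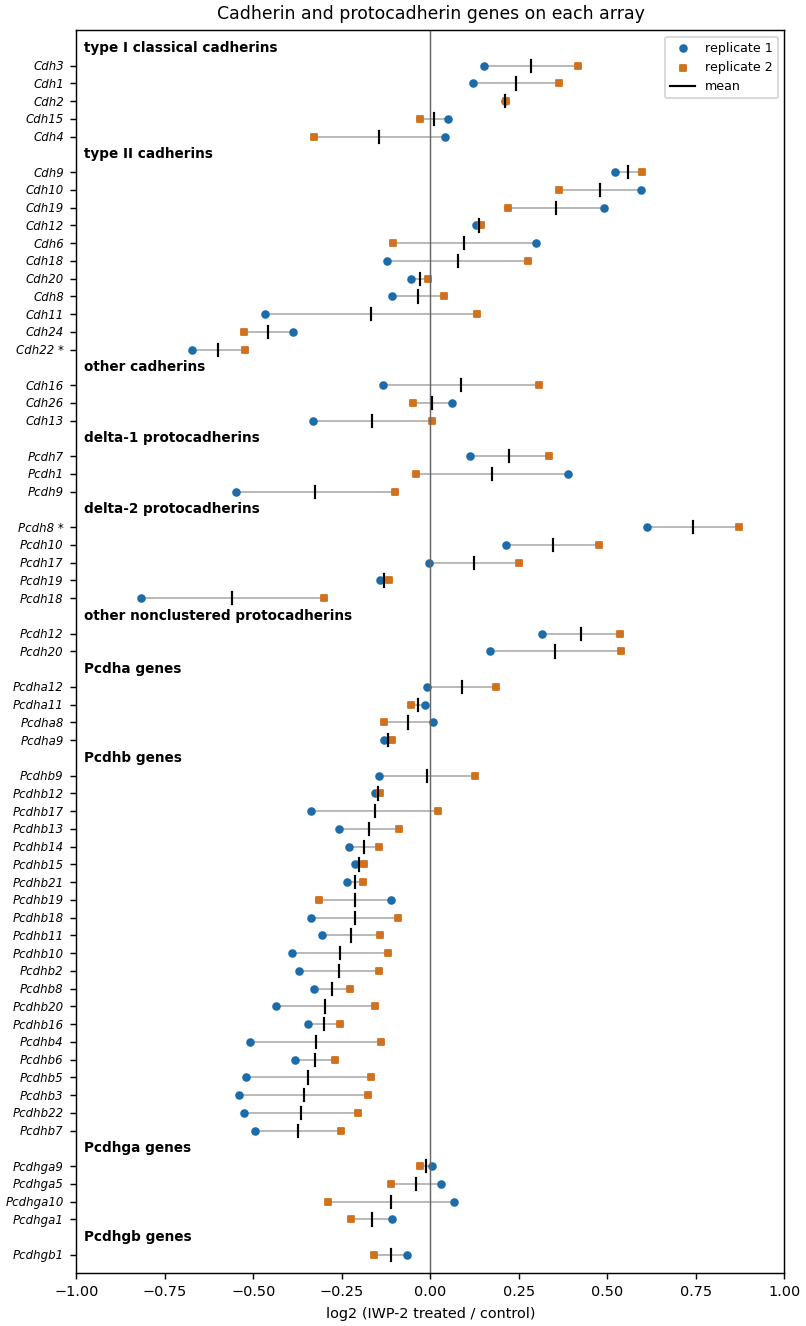
Log2 ratio of IWP-2-treated over control ureters for the 59 members tested, on replicate 1 (circles) and replicate 2 (squares), with the mean as a bar. Asterisks mark *Cdh22* and *Pcdh8*, the members past FDR 0.05. All *Pcdhb* genes tested lie below 0 on replicate 1, and the type II cadherins and delta-protocadherins spread to both sides of 0 on both arrays.

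*Pcdh8* encodes a delta-protocadherin known as paraxial protocadherin from its expression in the presomitic mesoderm. Its processed intensity was 1112 in the control and 1689 in the treated pool on replicate 1, and 1048 and 1916 on replicate 2. Both treated values were above both control values. The change was 0.61 and 0.87 on the 2 arrays, with a mean of 0.74 ± 0.18 (SD, n = 2), or 1.67-fold (limma, adjusted p = 0.033).

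*Cdh22* encodes a type II cadherin known from the brain. Its processed intensity fell from 49.2 to 25.9 on replicate 1 and from 59.6 to 36.7 on replicate 2, and the treated and control values did not overlap. The change was -0.67 and -0.52, with a mean of -0.60 ± 0.10 (SD, n = 2), or 1.51-fold lower (limma, adjusted p = 0.046). Both adjusted p-values were near the threshold. The call of *Cdh22* was lost in 6 of the 10 alternative analyses and that of *Pcdh8* in 4, with the direction kept in each.

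The 5 classical type I cadherins were all tested and none passed the threshold. *Cdh1*, which encodes E-cadherin of epithelial junctions, measured 2222 in the control and 2463 in the treated pool on replicate 1, and 2531 and 3225 on replicate 2. The treated pool was the brighter on both arrays, with a mean change of 0.24 ± 0.17 (SD, n = 2; limma, adjusted p = 0.42). *Cdh3*, which encodes the epithelial P-cadherin, measured 2337 and 2662 on replicate 1 and 2318 and 3020 on replicate 2. Its mean change was 0.28 ± 0.19 (SD, n = 2; limma, adjusted p = 0.33). *Cdh2*, which encodes N-cadherin of mesenchymal and neural cells, had ratios of 0.21 on both arrays, with intensities of 5651 and 6536 on replicate 1 and 6036 and 6812 on replicate 2 (limma, adjusted p = 0.44). Each of these 3 genes had the same sign on both arrays. For scale, the smallest mean change of any gene past FDR 0.05 in this fit was 0.57. *Cdh4*, which encodes R-cadherin, was 0.04 on replicate 1 and -0.33 on replicate 2, and all 3 of its kept probes were lower on replicate 2 than on replicate 1. *Cdh15*, the cadherin of skeletal muscle, had a mean change of 0.01 ± 0.06 (SD, n = 2).

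**Figure D2:**
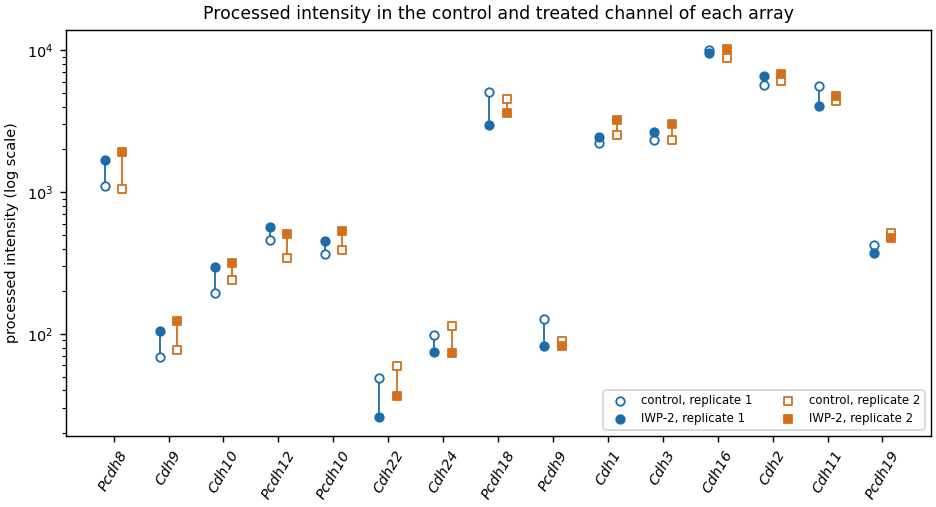
Processed intensity (log axis) of 15 members in the control (open) and IWP-2-treated channel (filled) of replicate 1 (circles) and replicate 2 (squares). In *Pcdh8*, *Cdh9*, *Cdh10*, *Pcdh12*, *Pcdh10*, *Cdh3* and *Cdh2* both treated values are above both control values. In *Cdh22*, *Cdh24*, *Pcdh18* and *Pcdh9* both are below, whereas *Cdh11* and *Cdh16* differ in direction between the arrays.

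Type II cadherins ranged from -0.60 in *Cdh22* to 0.56 in *Cdh9*. Of 12 names 11 were tested. *Cdh9*, a cadherin of neurons, measured 68.2 in the control and 105 in the treated pool on replicate 1, and 77.2 and 124 on replicate 2. The groups did not overlap, and the mean change of 0.56 ± 0.05 (SD, n = 2) just missed the threshold (limma, adjusted p = 0.052). *Cdh10*, its close relative in the nervous system, measured 193 and 296 on replicate 1 and 241 and 317 on replicate 2, with a mean of 0.48 ± 0.16 (SD, n = 2; limma, adjusted p = 0.099). *Cdh24* showed the opposite sign. It measured 97.6 in the control and 74.3 in the treated pool on replicate 1, and 113 and 73.1 on replicate 2, with a mean of -0.46 ± 0.10 (SD, n = 2; limma, adjusted p = 0.095). *Cdh19*, a cadherin of Schwann cell precursors that was added here after its values were seen, had ratios of 0.49 and 0.22 (limma, adjusted p = 0.23).

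*Cdh11*, *Cdh6*, *Cdh16* and *Cdh13* are described together as members whose arrays differed in sign. *Cdh11*, which encodes the cadherin typical of mesenchyme, measured 5547 in the control and 4054 in the treated pool on replicate 1, but 4391 and 4717 on replicate 2. Its ratio was thus -0.47 on one array and 0.13 on the other (limma, adjusted p = 0.81), and a second, dimmer probe had the reverse order, with 0.05 and -0.24. *Cdh6*, a cadherin of the forming nephron, was 0.30 and -0.11, and its second kept probe 0.10 and -0.36. It was the only one of the 9 members with several kept probes whose probes differed in the sign of the mean. *Cdh16*, the kidney-specific cadherin of epithelia derived from the nephric duct, measured 9992 and 9595 on replicate 1 and 8769 and 10249 on replicate 2, with a mean change of 0.09 ± 0.31 (SD, n = 2). *Cdh13*, a cadherin held by a lipid anchor, was -0.33 and 0.01. In all 4 of these genes the arrays had opposite signs. The same held for 9 of the 19 *Cdh* genes tested and for 8851 of the 20119 genes tested.

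The nonclustered protocadherins spread as widely, with a median change of 0.20 over the 10 of 11 names tested and 1 call, that of *Pcdh8*. *Pcdh18*, another delta-protocadherin, had the lowest mean of this group. It measured 5043 in the control and 2949 in the treated pool on replicate 1, and 4525 and 3585 on replicate 2. The groups did not overlap, but the ratios of -0.82 and -0.30 differed (mean -0.56 ± 0.37, SD, n = 2; limma, adjusted p = 0.13). *Pcdh10* had ratios of 0.21 and 0.48 (limma, adjusted p = 0.23), and its 3 kept probes ranged from 0.28 to 0.35 in their means. *Pcdh7* had 3 kept probes with means from 0.14 to 0.22. *Pcdh9* had 3 kept probes with means from -0.37 to -0.16, and the brightest of them measured -0.55 and -0.10. *Pcdh1*, an epithelial protocadherin, was 0.39 and -0.04, *Pcdh17* was -0.0031 and 0.25, and *Pcdh19* was -0.14 and -0.12. None of these genes but *Pcdh8* passed the threshold. *Pcdh12*, the protocadherin of endothelial cells, measured 462 in the control and 566 in the treated pool on replicate 1, and 345 and 509 on replicate 2, with a mean of 0.43 ± 0.16 (SD, n = 2; limma, adjusted p = 0.13).

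**Figure D3:**
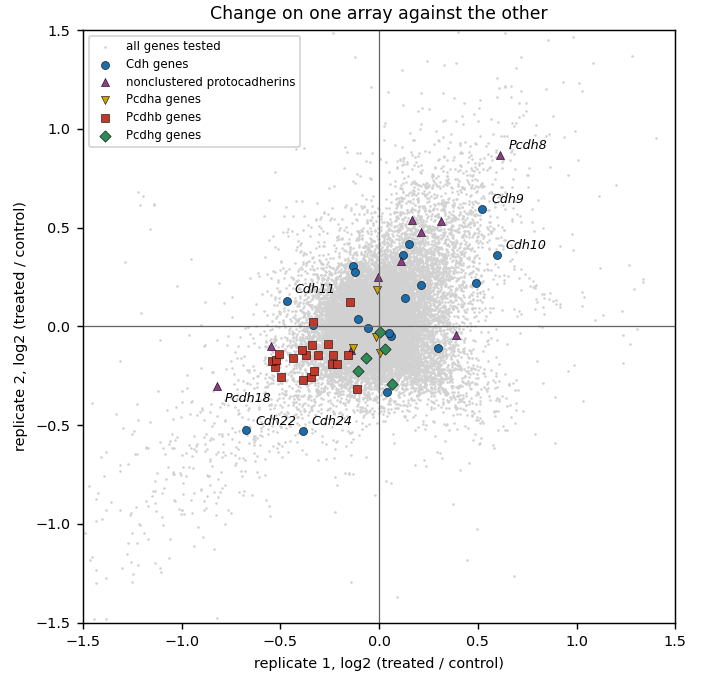
Log2 ratio of treated over control on replicate 2 against that on replicate 1, for all genes tested (grey; axes end at 1.5 in either direction) and for the members by group. *Pcdh8* lies in the upper right, *Cdh22* and *Cdh24* in the lower left, and the *Pcdhb* genes form a group at -0.54 to -0.11 on replicate 1 and -0.31 to 0.12 on replicate 2.

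The *Pcdhb* genes had small changes of the same sign. Of 22 names 21 were tested, and 19 of the 21 were lower on both arrays, beside 27.5% of all genes. The exceptions were *Pcdhb9* and *Pcdhb17*, which were lower on replicate 1 only. At an unadjusted p-value below 0.05 10 of the 21 were lower and 0 higher, beside 4.74% and 8.67% of all genes, but 0 passed FDR 0.05 in limma. The median change was -0.34 on replicate 1 and -0.16 on replicate 2, where the medians of all genes were -0.01 and 0.02. Of the 21 genes 20 were lower on replicate 1 than on replicate 2. The means ranged from -0.38 in *Pcdhb7* to -0.01 in *Pcdhb9*.

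*Pcdhb7* measured 531 in the control and 390 in the treated pool on replicate 1, and 508 and 416 on replicate 2. The groups did not overlap, with a mean change of -0.38 ± 0.17 (SD, n = 2; limma, adjusted p = 0.19). *Pcdhb22* measured 376 and 251 on replicate 1 and 370 and 319 on replicate 2, with a mean of -0.37 ± 0.23 (SD, n = 2; limma, adjusted p = 0.23). *Pcdhb3* measured 227 and 153 on replicate 1 and 207 and 180 on replicate 2, with a mean of -0.36 ± 0.26 (SD, n = 2; limma, adjusted p = 0.26).

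The beta genes are alike in sequence and read from 1 stretch of a chromosome, so that they are not independent measurements. Their kept probes differed in sequence. The longest run of bases that any of the 21 shared with a probe of another member was 12 bases, with a median of 9, of 60. Probes were compared only with probes and not with the transcripts of other beta genes. Cross-hybridisation to transcripts of other genes was not tested. None of these probes had an accession of more than 1 RefSeq gene.

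The *Pcdha* and *Pcdhg* genes on either side of the beta cluster were dimmer for the most part. The control intensity was under 20 on both arrays for 3 of the 4 *Pcdha* genes tested and 3 of the 5 *Pcdhg* genes, against 1 of the 21 *Pcdhb* genes. The median change was -0.05 in the *Pcdha* and -0.11 in the *Pcdhg* genes, and 0 of these 9 genes passed the threshold, also at an unadjusted p-value below 0.05. The range was from -0.12 in *Pcdha9* to 0.09 in *Pcdha12*, and from -0.17 in *Pcdhga1* to -0.01 in the probe named *Pcdhga9*. That probe, described below, lists 4 gamma genes and is counted as 1 of the 5 *Pcdhg* genes here. The only *Pcdhgb* gene tested, *Pcdhgb1*, had a mean of -0.11. With ratios of the processed intensities in place of the corrected signals, the *Pcdhg* median was -0.22, *Pcdha9* was -0.32 and *Pcdhga1* was -0.27, beside a *Pcdhb* median of -0.32. Whether the beta genes differed from the alpha and gamma genes was not tested.

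The brightest probe of the clusters carried the name *Pcdhga9*, but its accessions belonged to 4 gamma genes, *Pcdhga1*, *Pcdhga5*, *Pcdhga6* and *Pcdhga9*. It may therefore measure several gamma transcripts together, and cannot be assigned to 1 of them. It lay at chr18:38001378-38001437, beyond the probe of *Pcdhgc5* at chr18:37979245-37979304, both on the plus strand. Which exon the *Pcdhga9* probe covers was not checked. The intensity of this probe was 16178 in the control and 16051 in the treated pool on replicate 1, and 12063 and 11482 on replicate 2, with ratios of 0.00 and -0.03. A second, dimmer probe of the same 4 genes had 0.03 and -0.42. On the alpha side, a probe named *Pcdhac2*, outside the rule for members, listed 4 alpha genes and measured -0.32 and -0.15 (limma, adjusted p = 0.40). A second, dimmer kept probe that listed *Pcdhac2* alone measured -0.17 and -0.26. The probe of *Pcdha8* also listed several genes and measured 0.01 and -0.13.

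**Figure D4:**
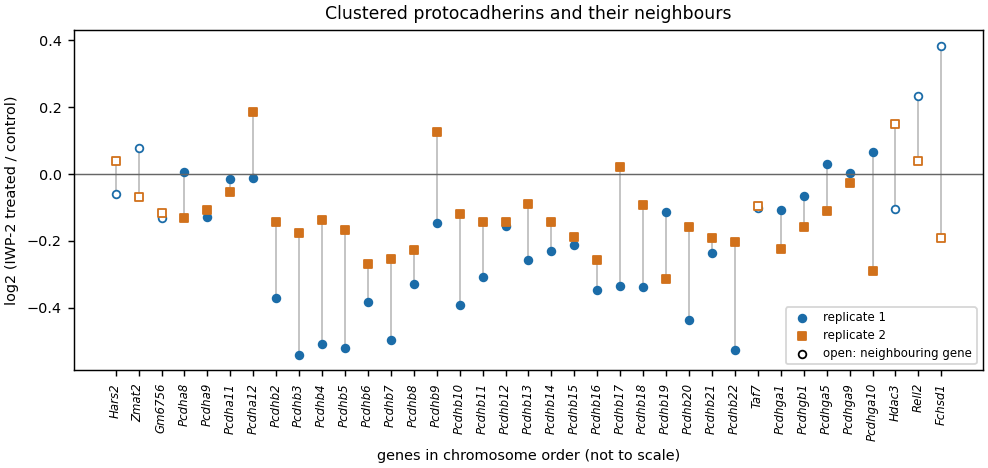
Log2 ratio of treated over control on replicate 1 (circles) and replicate 2 (squares) for the clustered protocadherins tested, in chromosome order but not to scale, with the nearest tested neighbours (open symbols). Of the *Pcdhb* genes 19 of 21 lie below 0 on both arrays, and the means of the *Pcdha* and *Pcdhg* members lie between -0.17 and 0.09. The symbols of *Pcdha8* and *Pcdhga9* stand for probes that list 4 genes each. *Pcdhac2*, outside the rule, is not drawn.

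The tested neighbours had means between -0.12 and 0.14. In the gene order of RefSeq, *Taf7*, the one tested gene within the clusters that is not a protocadherin, lies between the beta and gamma genes and measured -0.10 and -0.09. The 3 tested genes before the clusters, *Hars2*, *Zmat2* and *Gm6756*, had means of -0.01, 0.00 and -0.12, and the 3 after them, *Hdac3*, *Rell2* and *Fchsd1*, had means of 0.02, 0.14 and 0.10. The 12 tested genes for factors that act on the clusters, such as *Ctcf*, cohesin subunits and *Smchd1*, ranged from -0.11 to 0.08, and 0 of them passed the threshold in limma (0 also at an unadjusted p-value below 0.05).

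The 7 members not tested were *Cdh7*, *Cdh17*, *Cdh23*, *Pcdh15*, *Pcdha4*, *Pcdhb1* and *Pcdhgc5*. In neither group was a probe of theirs well above background in over a share of 0.5 of its spots on both arrays, and no change is given for them. They include *Cdh23* and *Pcdh15*, which form the tip links of hair cells in the inner ear, and *Cdh17*, the cadherin of liver and intestine. *Pcdhb9*, which was tested, was above background in most spots of 3 of the 4 channels.

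None of the partners of cadherins passed the threshold. Of 17 tested catenins and junction partners 0 were past FDR 0.05 in limma, and 1 was higher at an unadjusted p-value below 0.05. *Ctnnb1*, which encodes beta-catenin, was 0.00 and 0.16. *Ctnna1*, for alpha-catenin, was -0.01 and 0.08, *Ctnnd1*, for p120-catenin, -0.12 and 0.06, and *Jup*, for plakoglobin, -0.06 and -0.28. Of 6 tested desmosomal genes, 16 large and atypical cadherins and 8 genes for cadherin-cleaving proteases, 0 passed the threshold. At an unadjusted p-value below 0.05, 0 of the desmosomal genes were past it, and 1 of the proteases was higher. Of the 16 large cadherins 4 were lower and 1 higher, beside 4.74% and 8.67% of all genes. The lower ones, named here after their values were seen, were *Fat1* at -0.61 and -0.42 (limma, adjusted p = 0.077), *Fat4*, *Dchs1* and *Clstn1*. The higher one was *Celsr3* at 0.36 and 0.19.

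Among 10 tested transcription factors that act on *Cdh1* only *Snai1* passed the threshold. It encodes a repressor of E-cadherin. It measured 2060 in the control and 817 in the treated pool on replicate 1, and 1651 and 661 on replicate 2. *Snai1* fell by 1.33 on the log2 scale (SD 0.07, n = 2; limma, adjusted p = 0.0039), while *Cdh1* did not pass the threshold, as above. The other factors ranged from -0.32 in *Snai2*, with ratios of -0.42 and -0.23 (limma, adjusted p = 0.24), to 0.45 in *Twist1*, with ratios of 0.18 and 0.73 (limma, adjusted p = 0.24). Of the 10 factors 6 were lower and 2 higher on both arrays, beside 27.5% and 28.5% of all genes.

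Markers of other cell types moved along with some of these genes. For scale, 28.5% of all genes were higher on both arrays, 8.67% were higher at an unadjusted p-value below 0.05 and 0.611% passed the threshold as higher. All 10 endothelial markers were higher on both arrays, with a median change of 0.47, and *Kdr* and *Cldn5* passed the threshold as higher (limma, adjusted p = 0.036 and 0.035). Their summed intensity was 18297 and 13629 in the control pools and 25347 and 21214 in the treated pools. *Pcdh12* at 0.43 lay in the range of this list, from 0.24 to 0.74, as did *Cdh5*, itself on the list, at 0.57. Of 12 neural and neural crest markers 11 were higher on both arrays, with a median of 0.36 and 0 calls (9 higher at an unadjusted p-value below 0.05). Their summed intensity was 53826 and 50782 in the controls and 71841 and 62635 in the treated pools. The markers of this list ranged from 0.10 to 0.54. *Cdh10* at 0.48 and *Cdh19* at 0.35 lay within this range, and *Cdh9* at 0.56 lay just above it. Of the 11 type II cadherins tested, however, 5 had a mean below 0, among them *Cdh22*, known from the brain, at -0.60 and *Cdh24* at -0.46. *Cdh11* at -0.17, *Cdh8* at -0.04, *Cdh20* at -0.03, *Cdh18* at 0.08 and *Cdh6* at 0.09 also lay below the neural range. *Cdh12* at 0.14 lay within it. *Cdh8*, *Cdh18* and *Cdh20* had control intensities under 20 on both arrays. Of 10 blood and macrophage markers 9 were higher on both arrays, with a median of 0.44 and *Adgre1* called. Their summed intensity was 102810 and 56083 in the controls and 120270 and 88380 in the treated pools. No defining marker of these 3 lists was missing from the tested genes. The part of such cells in the changes of the cadherins was not tested.

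The epithelial and mesenchymal lists, which define the ureter itself, were well above background. Among all genes 4.74% were lower and 8.67% higher at an unadjusted p-value below 0.05. The 12 epithelial markers had a median change of 0.12 and 0 calls (1 lower and 4 higher at an unadjusted p-value below 0.05), with *Epcam* at 0.25 and 0.35 and *Krt8* at -0.12 and 0.20. Of the 10 mesenchymal markers *Tbx18* and *Sox9* fell, by 1.03 and 1.30 on the log2 scale (limma, adjusted p = 0.013 and 0.011), and the median was -0.07. At an unadjusted p-value below 0.05 3 were lower and 3 higher, the latter being *Pdgfrb* at 0.50, *Twist1* at 0.45 and *Vim* at 0.31. Of the 6 smooth muscle genes tested 0 were called and 3 were lower at an unadjusted p-value below 0.05, with a median of -0.27. Summed intensities of the epithelial list were 58787 and 56168 in the control and 61708 and 64982 in the treated pools. Those of the mesenchymal list were 87143 and 73519 in the control and 83309 and 81876 in the treated pools.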

How the data were processed

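Two-colour Agilent arrays of 2 pairs of pools were analysed. Per the file headers, the deposited scanner files hold the intensity of each spot and its local background, and an intensity that Feature Extraction 12.2.0.7 had background-subtracted and normalized between dyes (version 10.7.3.1 in the submitters' processing notes). Other deposited columns mark outlier, saturated and well-above-background spots. The deposited series table holds a score, a signed fold change rounded by the authors, and served as an alternative.

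Mean intensities were corrected by normexp (offset 50) and loess within arrays in limma 3.58.1 (R 4.3.3). Outlier spots were dropped, and the spots of a probe averaged. Probes were kept if over a share of 0.5 of the spots was well above background in 1 group on both arrays, and the brightest kept probe stood for its gene. The fit (lmFit, eBayes) took the dye swap as a sign and left 1 residual degree of freedom, and the number of arrays limits the precision. The procedure was tested on simulated data. Tables and plots were made with Python 3.11.15, pandas 2.3.3 and matplotlib 3.10.9.

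The members and gene lists were chosen with earlier results of these data known. Genes named are members past FDR 0.05, the 10 members with the largest mean change of like sign on both arrays, a list of well-known members, the lowest and highest gene of each cluster group, related genes past FDR 0.05 with *Ctnnb1*, *Ctnna1*, *Ctnnd1* and *Jup*, neighbours of the clusters and marker genes of the cell type lists. *Pcdh20* and the remaining type II cadherins were named after their values were seen. Separate pools were labelled as replicates, but nothing says that they came from separate litters. The p-values measure only the spread between these 2 arrays, and limma drew the spread of each gene toward that of all genes tested. *Cdh2*, for example, had an SD of 0.0016 but a standard error of 0.0975. Both arrays lay on 1 slide in 1 scan. Alternatives were other background corrections, centrings, filters, probe summaries and priors, and each array alone.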

Additional observations from a re-analysis of the deposited data

How the results depend on the processing

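The count of lower members was 1 and became 0 with processed intensities, without background correction, with centring on the median, without the filter on dim probes and with outlier spots kept, and 3 in a model of the single channels that included the dye. The count of higher members was 1 and became 0 with processed intensities, with centring on the median and without the filter, 2 with the mean over kept probes and 4 in the single-channel model. *Cdh22* ranged from an adjusted p of 0.00067 to 0.55 and *Pcdh8* from 6.8e-06 to 0.37 over the alternatives in limma, with no change of sign. In the deposited series table, which holds rounded fold changes, neither was called, and *Pcdh19* (lower) and *Cdh2* (higher) were. Their mean changes there were -0.1375 and 0.1375, of the same size, and both had an adjusted p of 0.042 (limma). In the main fit they were -0.13 and 0.21 and did not pass the threshold. The cause of these differences was not tested. With each array alone, with no test, the median change ranged from 0.05 to 0.13 in the *Cdh* genes, from 0.14 to 0.29 in the nonclustered protocadherins, from -0.34 to -0.16 in the *Pcdhb* genes and from -0.16 to 0.0042 in the *Pcdhg* genes. The *Pcdhg* median of -0.11 was -0.22 with processed intensities and in the deposited series table. The *Cdh* median of 0.08 moved to 0.0098 with the mean over kept probes. The *Pcdhb* median lay between -0.32 and -0.24 in the other alternatives, where 19 or 20 genes were lower on both arrays. With centring on the median in place of loess the median of the genes tested was 0.11 on replicate 1 and -0.14 on replicate 2, and the *Pcdhb* medians were -0.28 and -0.25. Single genes changed sign at means near 0: *Cdh15* to -0.0025 and *Pcdhb9* to 0.027 with centring on the median, and *Cdh6* to -0.017 with the mean over kept probes. No paired analysis was possible because each ratio already pairs the pools of 1 array, and a slide block could not be fitted with 1 slide. Dim probes limit the clusters: ratios of intensities under 20 are compressed by the offset, and so was that of *Cdh22*.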
